A study of Mus musculus with 6 samples.

Results

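Hba-a1, Hba-a2, Alas2, Slc4a1, Ahsp and Epb42 are genes of the red cell lineage: alpha globin and its chaperone, the heme synthesis enzyme of red cell precursors, and 2 proteins of the red cell membrane. They were chosen by name, as a gauge of how much blood each RNA pool held, and not by their values. Of the 6 genes, 5 were found among the 24411 gene symbols of the count files, Epb42 under its older symbol Epb4.2; Ahsp was not analysed here.

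The RNA came from the dissected cochlear sensory epithelium of mice at postnatal day 9, before the onset of hearing. In Kir2.1-OE mice, of the genotype Otof rtTA+/-; Kir2.1+/-, doxycycline (DOX) induces the inward rectifier K+ channel Kir2.1 through a transactivator placed under the promoter of Otof, a gene of hair cells, which aims the transgene at inner hair cells (IHCs). The controls were littermates (Otof rtTA+/-; Kir2.1+/+) that carried the same transactivator and received the same DOX in their drinking water, so both groups shared the Otof rtTA allele and the drug. Each group had 3 libraries, and each library was 1 pool of 8 cochleae from 4 mice, so that the pool and not the mouse was the replicate. The pools held all cells of the dissected tissue, with blood vessels and bone beside hair cells, and fewer cells of a type cannot be told apart from less RNA per cell in such bulk samples.

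Hemoglobin is assembled from alpha-type and beta-type chains, each of which holds a heme group, and red cell precursors make globin and heme together. Alas2 catalyses the first and rate-limiting step of heme synthesis in these precursors, while Alas1 does so in other tissues. Slc4a1, also called band 3, exchanges chloride for bicarbonate across the red cell membrane and ties it to the spectrin skeleton beneath, where the Epb42 protein binds it. Mature red cells have lost their nucleus, whereas reticulocytes, the youngest cells to enter the blood, still carry globin mRNA. The sensory epithelium makes no red cells, so these transcripts are a common gauge of the blood left in a dissected tissue.

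The assigned reads per library lay between 35430940 and 38193109 in Kir2.1-OE and between 37063812 and 41205047 in controls, and 15303 genes had enough counts to be tested. A gene without a read could hold up to 8.47e-06% of the smallest library, a limit from 3 counts that covers counting error only. Kcnj2, the gene of Kir2.1, had 3611.9, 3813.3 and 2213.0 normalized counts (counts scaled to a common library size) in the Kir2.1-OE pools, numbered 1 to 3 in that order throughout, and 235.8, 228.1 and 226.0 in the control pools, which differed by 3.80 ± 0.20 on the log2 scale (SE, edgeR quasi-likelihood test, Benjamini-Hochberg adjusted p = 7.04e-05). Control replicate 1 stood apart from the other controls in several marker lists described below, and the calls of the erythroid genes are given with and without it.

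Both alpha globin genes lie on mouse chromosome 11 (mm10), Hba-a1 (ENSMUSG00000069919.7) at 32283511 to 32284465 and Hba-a2 (ENSMUSG00000069917.7) at 32296489 to 32297298, both on the plus strand. Their coding sequences, each of 429 bases in the GENCODE annotation, differed at 1 position and were equal at 99.77% of positions, and the 142 amino acids they encode were the same. The only coding difference was C381T, counted from the A of the start codon in Hba-a1, with the changed base in capitals in these stretches of coding positions 367 to 395, which are shown because almost nothing else in the coding sequence tells the reads of the pair apart.
Hba-a1: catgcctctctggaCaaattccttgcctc
Hba-a2: catgcctctctggaTaaattccttgcctc
Both codons, at amino acid 127, encode aspartate. Of all stretches of 31 bases in the longest transcripts, 71.3% of those of Hba-a1 also occurred in Hba-a2 and 91.0% of those of Hba-a2 also occurred in Hba-a1. The split of the estimated counts between the pair is therefore uncertain, and their sum is given beside the single values.

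The sequences just upstream of Hba-a2 and Alas2 are shown because the alpha globin genes and Alas2 moved together over the pools, as described below. The cause of this was not tested. They come from RefSeq (GRCm38.p6), start 250 bases before the RefSeq start of each gene and stop where the first annotated exon begins, 247 bases for Hba-a2 at chr11:32296242-32296488 and 208 bases for Alas2 at chrX:150547167-150547374, both on the plus strand. Capitals mark GATAA, the core read by GATA factors, and CACCC, the core of boxes read by Krüppel-like factors, on either strand.
Hba-a2: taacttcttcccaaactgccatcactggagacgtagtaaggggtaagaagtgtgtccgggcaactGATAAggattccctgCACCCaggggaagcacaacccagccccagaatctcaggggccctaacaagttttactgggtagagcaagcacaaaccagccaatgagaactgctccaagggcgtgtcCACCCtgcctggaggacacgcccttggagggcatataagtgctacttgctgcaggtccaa
Alas2: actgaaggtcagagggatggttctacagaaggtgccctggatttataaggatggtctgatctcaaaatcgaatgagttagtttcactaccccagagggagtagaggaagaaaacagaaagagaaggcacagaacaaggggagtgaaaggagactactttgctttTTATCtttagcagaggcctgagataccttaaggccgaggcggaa
The stretch shown for Hba-a2 held 1 GATAA and 2 CACCC, and that for Alas2 held 1 GATAA, on the minus strand. Of 32851 promoter windows of 250 bases, 22.6% held GATAA, 52% held CACCC and 10.1% held both, so the letters alone were common. These matches describe the sequence and show no binding.

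Alpha globin was the most abundant product of the set. Hba-a1 had 8132.2, 6811.2 and 8424.8 normalized counts in the Kir2.1-OE pools and 29799.4, 10560.1 and 12429.3 in the control pools. Each Kir2.1-OE pool lay below each control pool, and control replicate 1 held 2.59 times the mean of the other controls. The means were 7789.4 ± 859.7 and 17596.2 ± 10609.4 (SD, n = 3 pools each), a log2 fold change of -1.18 ± 0.33 (SE, edgeR quasi-likelihood test, adjusted p = 0.0147), so Hba-a1 was called lower.

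Hba-a2 had 4387.9, 2954.9 and 3464.5 normalized counts in the Kir2.1-OE pools and 10507.3, 5571.7 and 3464.9 in the controls. The groups overlapped, since control replicate 3 was level with Kir2.1-OE replicate 3, and control replicate 1 was again the highest, at 2.33 times the mean of the other controls. The log2 fold change of -0.85 ± 0.33 (SE) did not pass the test (edgeR, adjusted p = 0.0543). This value lay close to the threshold, and Hba-a2 was called lower under 5 of the other settings and without control replicate 3.

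With the counts of the pair summed, which removes the question of how shared reads were split, alpha globin had 12520.2, 9766.2 and 11889.3 normalized counts in Kir2.1-OE and 40306.7, 16131.8 and 15894.2 in controls. The sum was called lower (log2 fold change -1.08 ± 0.32 SE, edgeR, adjusted p = 0.0183). Control replicates 2 and 3 were almost level in the sum, although they differed in how the reads were divided: Hba-a2 took 34.5% and 21.8% of the pair's reads there, against 26.1% in control replicate 1 and 35%, 30.3% and 29.1% in Kir2.1-OE. The embryonic alpha-type gene Hba-x had 0 counts in all 6 pools, and the theta globin genes Hbq1a and Hbq1b had at most 5.02 normalized counts in any pool.

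Alas2 (ENSMUSG00000025270.13), on the X chromosome at 150547375 to 150570638, had 401.3, 280.8 and 347.0 normalized counts in Kir2.1-OE and 1134.7, 427.1 and 528.3 in controls. Every Kir2.1-OE pool was below every control pool, and control replicate 1 held 2.38 times the mean of the other controls. The means of 343.0 ± 60.4 and 696.7 ± 382.7 (SD, n = 3) differed by -1.02 ± 0.32 on the log2 scale (SE, edgeR, adjusted p = 0.0248), and Alas2 was called lower.

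Slc4a1 (ENSMUSG00000006574.15), on the minus strand of chromosome 11 at 102348824 to 102366203, had 89.3, 44.0 and 93.1 normalized counts in Kir2.1-OE and 222.7, 66.3 and 80.4 in controls. Kir2.1-OE replicates 1 and 3 exceeded control replicates 2 and 3, and control replicate 1 alone, at 3.04 times the mean of the other controls, set the control mean above the Kir2.1-OE mean. The log2 fold change of -0.71 ± 0.46 (SE) did not pass the test (edgeR, adjusted p = 0.229).

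Epb42 (ENSMUSG00000023216.13), on the minus strand of chromosome 2 at 121017891 to 121037072, was the rarest of the 5, with 12.3, 11.0 and 21.2 normalized counts in Kir2.1-OE and 42.1, 20.0 and 22.4 in controls. Kir2.1-OE replicate 3 lay between the lower control pools and control replicate 1 was highest. The log2 fold change was -0.92 ± 0.42 (SE, edgeR, adjusted p = 0.0946), which did not pass the test.

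**Figure D1:**
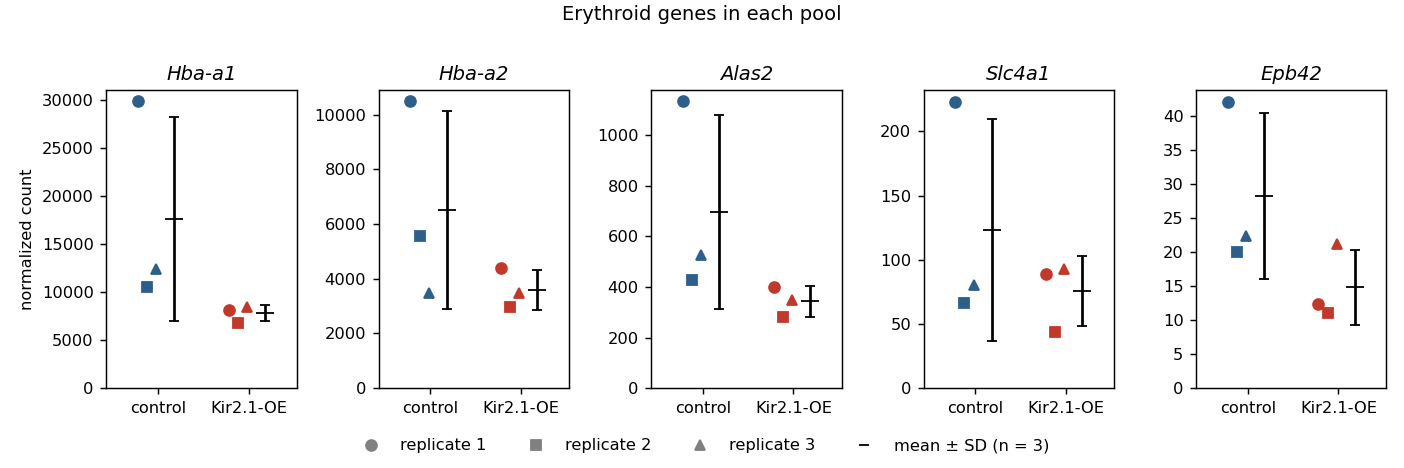
Normalized counts of Hba-a1, Hba-a2, Alas2, Slc4a1 and Epb42 (linear axes from 0, one scale per gene) in each control and Kir2.1-OE pool, with symbols for the replicate number and bars for the mean ± SD of 3 pools. Control replicate 1 was the highest pool for each gene, at 1.99 to 3.04 times the mean of the other 2 controls.

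By the rule of an adjusted p under 0.05 and a fold change above 1.5, 2 of the 5 genes were called lower in Kir2.1-OE, Hba-a1 and Alas2, beside 5.08% of all genes tested, and none was called higher, beside 15.5% of all genes. All 5 had a fitted log2 fold change below 0, with a median of -0.92 beside 0.01 over all genes tested. At an unadjusted p under 0.05, 3 of the 5 were lower and 0 higher by edgeR, and 2 were lower and 0 higher by DESeq2 and by limma-voom. Of all genes at least 23.5% were lower by edgeR at this threshold, the share that was lower at an adjusted p under 0.05. Only for Hba-a1 and Alas2 did the groups not overlap, in the direction in which 29.9% of all genes did not. For a single gene the exact two-sided permutation test over 3 against 3 pools cannot go below p = 0.1, and it gave that value for Hba-a1 and Alas2, 0.2 for Hba-a2 and Epb42 and 0.6 for Slc4a1.

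The 5 genes varied together from pool to pool. Their summed normalized count was 13023.1, 10101.9 and 12350.5 in Kir2.1-OE and 41706.2, 16645.2 and 16525.2 in controls, which was 0.0351%, 0.0265% and 0.033% of the assigned reads in Kir2.1-OE and 0.112%, 0.0445% and 0.0438% in controls. Averaged over the genes as log2 deviations from each gene's mean over the 6 pools, control replicate 1 stood at 1.27, control replicates 2 and 3 at -0.05 and 0.01, and the Kir2.1-OE pools at -0.26, -0.77 and -0.20. The lowest pool was thus Kir2.1-OE replicate 2, which was the lowest of the 6 for all 5 genes. Over the 6 pools Pearson's r between pairs of the genes lay between 0.77 (Hba-a2 and Epb42) and 0.99 (Hba-a1 and Alas2); these 6 points share their libraries, and control replicate 1 weighs heavily in each value.

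**Figure D2:**
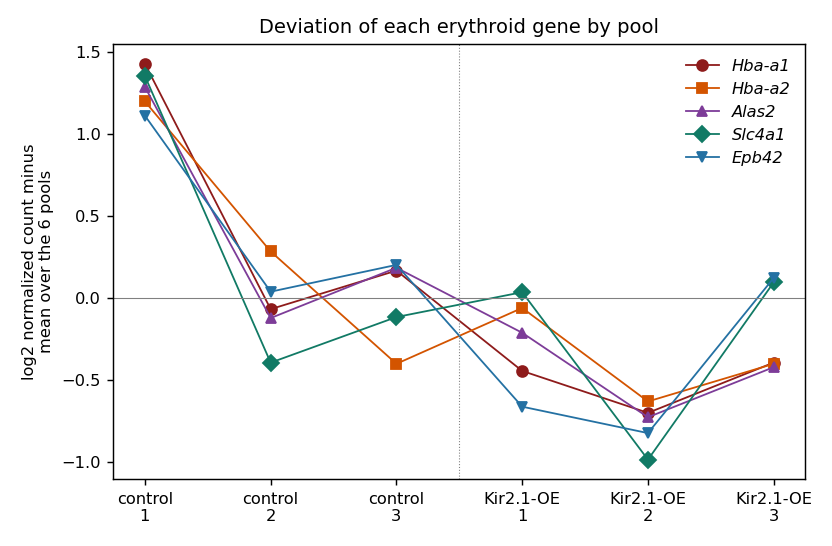
Log2 normalized count of each of the 5 genes minus its own mean over the 6 pools (vertical axis) in the control and Kir2.1-OE pools (horizontal axis), with 1 line per gene that serves only to link its points. All 5 genes peak in control replicate 1 and reach their lowest point in Kir2.1-OE replicate 2.

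Without control replicate 1, none of the 5 genes was called lower, beside 3.95% of all genes, and their median log2 fold change was -0.48. Still, 2 of them had an adjusted p under 0.05, for which the share of all genes was not counted. Hba-a1 then had a log2 fold change of -0.56 ± 0.11 (SE, edgeR, adjusted p = 0.00452) and Alas2 one of -0.48 ± 0.17 (edgeR, adjusted p = 0.0475), both less than 1.5-fold. Hba-a2 stood at -0.33 (adjusted p = 0.222), Epb42 at -0.52 (0.369) and Slc4a1 at 0.04 (0.938). The summed count of the 5 genes in Kir2.1-OE was 0.474 times the control mean over all pools and 0.712 times the mean of control replicates 2 and 3. Leaving out Kir2.1-OE replicate 2 also ended the call of Alas2 (log2 fold change -0.92, adjusted p = 0.0659) and left 1 gene called lower.

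Fold changes in these libraries moved with transcript length: genes whose longest transcript was under 1000 bases had a median log2 fold change of -0.50, those of 1000 to 4000 bases one of -0.13 and those of 4000 bases or more one of 0.36. The longest transcripts of Hba-a1 and Hba-a2, at 699 and 554 bases, were in the shortest class, Alas2 with 2037 bases in the middle one, and Slc4a1 and Epb42 with 4545 and 4115 bases in the longest. When length and GC content entered the model as offsets, the log2 fold changes were -0.67 for Hba-a1 (edgeR, adjusted p = 0.144), -0.28 for Hba-a2 (0.556), -0.80 for Alas2 (0.0884), -1.03 for Slc4a1 (0.123) and -0.93 for Epb42 (0.118). No gene of the 5 was then called lower, beside 2.24% of all genes. The short globin genes thus moved towards 0 and the long Slc4a1 away from it, and which part of the difference came with length was not tested.

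With the offsets and without control replicate 1 together, a combination chosen after seeing the data, the log2 fold changes were -0.07 ± 0.12 (SE) for Hba-a1, 0.21 ± 0.24 for Hba-a2, -0.25 ± 0.17 for Alas2, -0.27 ± 0.34 for Slc4a1 and -0.53 ± 0.43 for Epb42. None of them passed the test (edgeR, adjusted p from 0.318 to 0.699), and at an unadjusted p under 0.05 the count was 0 of 5. These errors leave room for a change of each gene in either direction.

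**Figure D3:**
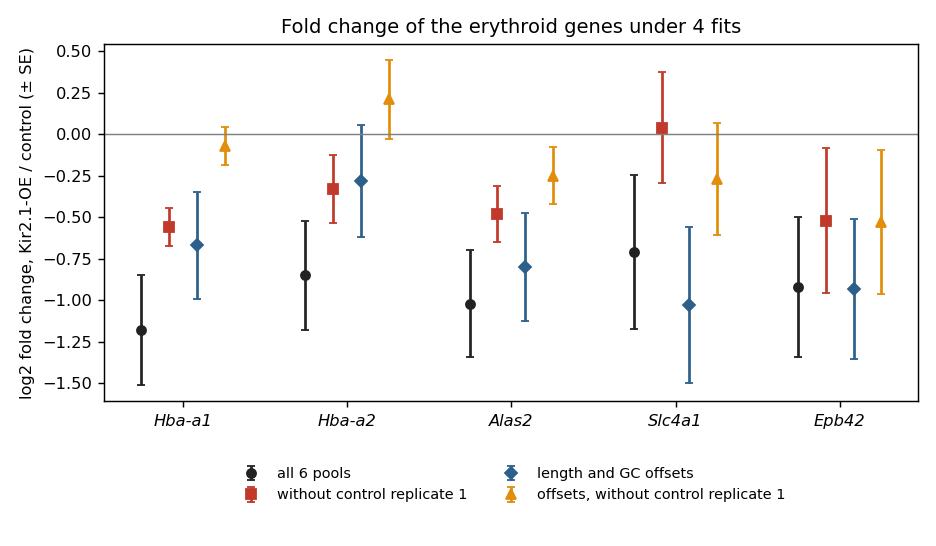
Log2 fold change (Kir2.1-OE over control, vertical axis, with bars of ± 1 SE) of the 5 genes in edgeR fits to all 6 pools, without control replicate 1, with length and GC offsets, and with both. For Hba-a1 the value goes from -1.18 over -0.56 and -0.67 to -0.07, and Hba-a2 and Slc4a1 each cross 0 in 1 of the fits.

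Ratios among the genes within a pool compare them with each other at whatever read count the pool held for them. Alas2 had 32.1, 28.8 and 29.2 reads per 1000 alpha globin reads in Kir2.1-OE and 28.2, 26.5 and 33.2 in controls (exact two-sided permutation test, p = 0.8). Control replicate 1, with by far the most globin reads, sat in the middle of its group in this ratio. The means were 30 ± 1.79 and 29.3 ± 3.52 (SD, n = 3), so that Alas2 and alpha globin kept nearly 1 proportion over a range of globin counts from 9766.2 to 40306.7.

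Slc4a1 had 7.13, 4.5 and 7.83 reads per 1000 alpha globin reads in Kir2.1-OE and 5.53, 4.11 and 5.06 in controls (exact permutation test, p = 0.3), with 2 Kir2.1-OE pools above all controls. Epb42 had 0.984, 1.13 and 1.78 in Kir2.1-OE and 1.05, 1.24 and 1.41 in controls (exact permutation test, p = 0.9). The share of Hba-a2 in the pair gave p = 0.4 (exact permutation test). The groups overlapped in all 4 ratios, none of which passed the test after Benjamini-Hochberg adjustment of these exact p-values over the 4 (adjusted p from 0.8 to 0.9), in a design that cannot go below p = 0.1.

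**Figure D4:**
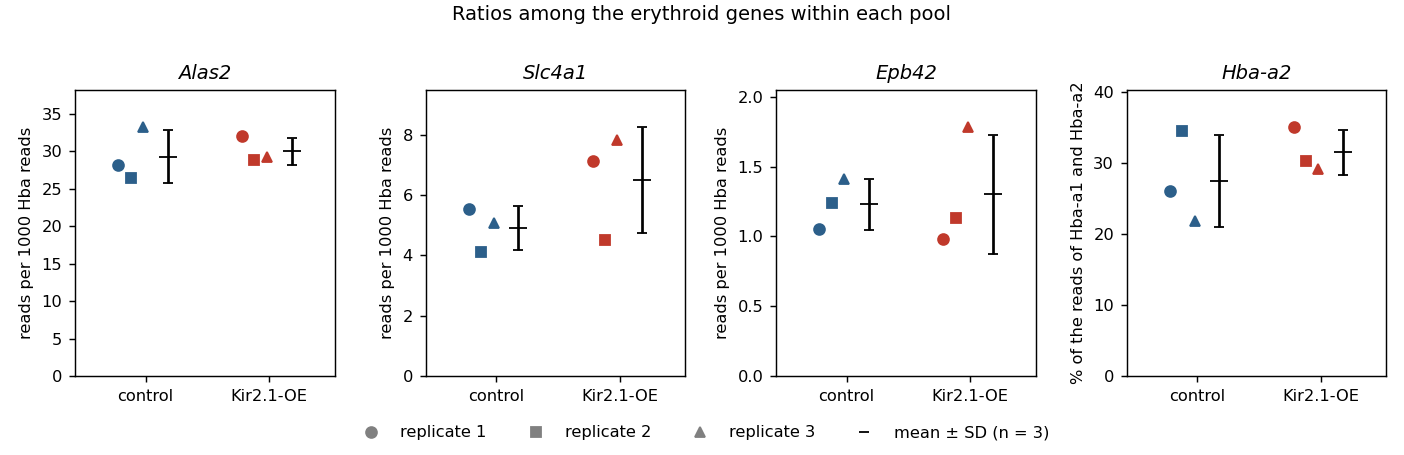
Reads of Alas2, Slc4a1 and Epb42 per 1000 reads of Hba-a1 plus Hba-a2, and the percentage of Hba-a2 in those reads (vertical axes from 0), in each control and Kir2.1-OE pool, with the mean ± SD of 3 pools. Control replicate 1 lies within the range of the other pools in each ratio, and the 2 groups overlap.

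Per length, the 5 genes kept 1 order in every pool. On a TPM-like scale (reads per kilobase of the longest transcript, scaled to the same total in each library) Hba-a1 had mean levels of 812 in Kir2.1-OE and 1596 in controls, and Hba-a2 had 475 and 747. Alas2 stood far below them at 12.3 and 21.7, followed by Slc4a1 at 1.21 and 1.72 and Epb42 at 0.262 and 0.434. The ranges over the 6 pools of Hba-a1 and Hba-a2 overlapped, at 692 to 2694 and 379 to 1199, while those of Hba-a2 and Alas2, of Alas2 and Slc4a1 and of Slc4a1 and Epb42 did not.

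Of the 9 enzymes of the pathway, Alas2 alone was called lower, beside 5.08% of all genes, and none higher, beside 15.5%. Their median log2 fold change was -0.23. At an adjusted p under 0.05 without the fold threshold 5 of the 9 were lower, beside 23.5% of all genes; with the length and GC offsets 2 were lower, beside 13.1% of all genes. Fech, which inserts iron into the ring, had a log2 fold change of -0.18 ± 0.07 (SE, edgeR, adjusted p = 0.0416), less than 1.5-fold, -0.52 with the offsets, and control counts of 3344.9, 3042.1 and 3104.5, so that control replicate 1 was only slightly the highest. Alad, the second enzyme of the pathway, stood at -0.02 (adjusted p = 0.79), and at 0.20 with the offsets (0.0438), less than 1.5-fold.

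Among 10 tested genes that carry heme and iron across mitochondrial membranes, none was called lower or higher, beside 5.08% and 15.5% of all genes. Their median log2 fold change was -0.35. At an adjusted p under 0.05 without the fold threshold 7 of the 10 were lower by edgeR, DESeq2 and limma-voom, beside the 23.5% of all genes by edgeR. With the offsets 2 were lower, beside 13.1%. Without control replicate 1 the number was 5, for which the share of all genes was not counted. At an unadjusted p under 0.05 each tool gave 8 lower and 0 higher. Of all genes at least the same 23.5% were lower by edgeR at this looser threshold. Slc25a39, a mitochondrial carrier, stood at -0.35 (edgeR, adjusted p = 0.00575) and at -0.19 with the offsets (0.0653). Tmem14c, needed for porphyrin transport, stood at -0.54 (edgeR, adjusted p = 0.000863) and at -0.05 with the offsets (0.569). Of 7 genes of heme breakdown and export, 1 was called higher, beside 15.5% of all genes, and none lower, beside 5.08%. It was Flvcr2, a transporter of the FLVCR family (log2 fold change 0.69 ± 0.23 SE, edgeR, adjusted p = 0.0315), which was not called without control replicate 1. With the offsets 2 were called higher, beside 8.2% of all genes: Flvcr2 (0.71, edgeR, adjusted p = 0.041) and Hmox1 (0.68, edgeR, adjusted p = 0.00182). Hmox1, named after its values were seen, stood at 0.36 without the offsets (edgeR, adjusted p = 0.0107), less than 1.5-fold. The abundant Slc48a1, a heme transporter, stood at -0.27 (0.0145) and Hmox2, the constitutive heme oxygenase, at -0.15 (0.129), a value above 0 with the offsets.

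Genes of the red cell membrane and skeleton did not move with Slc4a1 and Epb42. Of 20 listed, 16 were tested, with a median of 0.10. Of these, 4 were called higher, beside 15.5% of all genes, and 1 lower, beside 5.08%. Those called higher were Ank1 (log2 fold change 2.31), Add2 (1.69), Sptb (1.56) and Epb41 (0.71, named after its values were seen), the genes of ankyrin, adducin, spectrin and protein 4.1, which other cells also use in their membrane skeleton. Ank1 had 1320.0, 665.5 and 1734.9 normalized counts in Kir2.1-OE and 256.8, 328.9 and 162.9 in controls, with control replicate 1 between the others. With the length and GC offsets Ank1 and Add2 were called. Sptb (0.58, edgeR, adjusted p = 0.00389) and Epb41 (0.37, 0.0176) were then less than 1.5-fold, Sptb only just. With the offsets and without control replicate 1 Sptb was called (0.63, edgeR, adjusted p = 0.00839), and Add2 was not (1.02, 0.0785). Aqp1, a water channel of red cells and of other tissues, was called lower (-0.74 ± 0.13 SE, edgeR, adjusted p = 0.00138), also without control replicate 1. The most abundant genes of the list, Tmod1 (0.54, adjusted p = 0.00807) and Add1 (0.02, adjusted p = 0.841), were not called. With the offsets 4 of the 16 were called higher, beside 8.2% of all genes. These were Ank1, Add2, Tmod1 (0.60) and Gypc (0.68, edgeR, adjusted p = 0.00409), the last named after its values were seen.

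Rhd, of the Rh blood group complex, is more restricted to red cells and was rare; it was named after its values were seen. It had 18.5, 7.99 and 6.35 normalized counts in Kir2.1-OE and 49.2, 18.2 and 16.3 in controls (log2 fold change -1.33, edgeR, adjusted p = 0.0742), and -0.65 without control replicate 1. It was highest in control replicate 1, as the 5 genes were.

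Of 16 red cell enzymes and late erythroid genes, 13 were tested, with a median of -0.29. Of these, 1 was called higher, beside 15.5% of all genes, and 2 lower, beside 5.08%. Ube2o, which tags proteins for destruction as reticulocytes mature, was higher (0.75, edgeR, adjusted p = 0.000196). Prdx2, an abundant antioxidant enzyme, was lower (-0.64, edgeR, adjusted p = 0.000736). With the offsets neither Ube2o nor Prdx2 was called. Bnip3l, needed to clear mitochondria from reticulocytes, stood at -0.37 (0.00235), less than 1.5-fold, and at -0.14 with the offsets (0.129).

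Of 9 transcription factors of the lineage, 7 were tested, with a median of 0.11. Of these, 2 were called higher, beside 15.5% of all genes, and 1 lower, beside 5.08%. Cbfa2t3 (1.18) and Zfpm1 (0.62) were higher and Nfe2 (-0.87, edgeR, adjusted p = 0.000587) was lower; with the offsets only Nfe2 was still called. Gata1, the master regulator of red cell genes, did not reach the test, with 0 to 7.41 normalized counts in any pool. Klf1, the other defining factor, had 33.9, 32.0 and 32.8 in Kir2.1-OE and 70.2, 46.3 and 40.7 in controls (-0.67, adjusted p = 0.0746, and -0.41 without control replicate 1), so its groups did not overlap although it was not called; both genes were named after their values were seen. None of the 6 receptors and iron uptake genes was called in either direction, with a median of 0.17; by edgeR, DESeq2 and limma-voom alike, 0 were lower and 1 was higher at an unadjusted p under 0.05. The transferrin receptor Tfrc stood at 0.35 (edgeR, adjusted p = 0.153) and Steap3, a ferrireductase, at 0.00 (0.998).

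Markers of other blood and tissue cells were set beside the 5 genes, as summed normalized counts of each list. Neutrophil markers, led by Camp and S100a9, came to 618.0 in control replicate 1 against 322.6 and 222.9 in the other controls, a ratio of 2.27, and to 250.4, 142.9 and 188.3 in Kir2.1-OE. Control replicate 1 was the highest of the 6 pools for 5 of the 6 tested neutrophil genes, beside 24.3% of all genes and all 5 erythroid genes. Of these 6 genes 2 were called lower, Camp and S100a9, beside 5.08% of all genes. Without control replicate 1 Camp alone was called, and with the offsets neither was (edgeR, 0 of 6 at an unadjusted p under 0.05), with Camp at -0.37 (adjusted p = 0.138). Lymphocyte markers, led by Cd79b and Cd79a, ran from 43.4 to 65.7 in Kir2.1-OE and from 51.9 to 89.3 in controls, with control replicate 1 highest; neither of the 2 tested was called (edgeR, DESeq2 and limma-voom, 0 at an unadjusted p under 0.05).

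Bone markers, led by Ibsp and Bglap, moved the other way. They came to 36296.6 in control replicate 1 against 99022.4 and 142869.3 in the other controls, a ratio of 0.3, and to between 133846.0 and 150623.8 in Kir2.1-OE. The pool with the most globin reads was thus the pool with the least bone RNA, and the part of dissection in the difference of the erythroid genes was not tested.

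The sums of the remaining lists differed less between control replicate 1 and the other controls. Ratios ran from 0.842 for platelet markers (led by Gp1bb and Pf4) to 1.05 for supporting cell markers (led by Gjb2 and Otoa). Single genes could differ more. Tecta, a supporting cell marker named after its values were seen, had 25994.9 normalized counts in control replicate 1. The other controls had 12004.8 and 6264.0, a ratio of 2.85, and the Kir2.1-OE pools had 6197.5, 7757.6 and 8109.6. Endothelial markers (led by Emcn and Cdh5) summed to 1.16 times the control mean in Kir2.1-OE and pericyte markers (led by Pdgfrb and Rgs5) to 1.46 times. These sums went in the opposite direction to that of the erythroid genes, but not every gene did. Of the 10 endothelial genes 3 had a fitted log2 fold change below 0, among them Emcn (-0.20, edgeR, adjusted p = 0.0438). So did 1 of 6 pericyte genes and 2 of 8 hair cell genes, among the latter Ocm (-0.30, 0.0576). The pericyte median of 0.59 was 0.07 with the offsets, and the endothelial median of 0.61 was 0.44. Macrophage markers (led by Csf1r and C1qa) stood at 1.06 times, platelet markers at 1 and hair cell markers (led by Ocm and Calb2) at 1.16. Among them, 5 of 10 endothelial, 3 of 6 pericyte, 4 of 8 hair cell and 2 of 7 supporting cell genes were called higher, beside 15.5% of all genes. With the offsets these counts were 3, 1, 2 and 2, beside 8.2% of all genes. In these 4 lists none was called lower over all pools, beside 5.08% of all genes. With the offsets 1 was, Tecta, beside 2.24%.

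**Figure D5:**
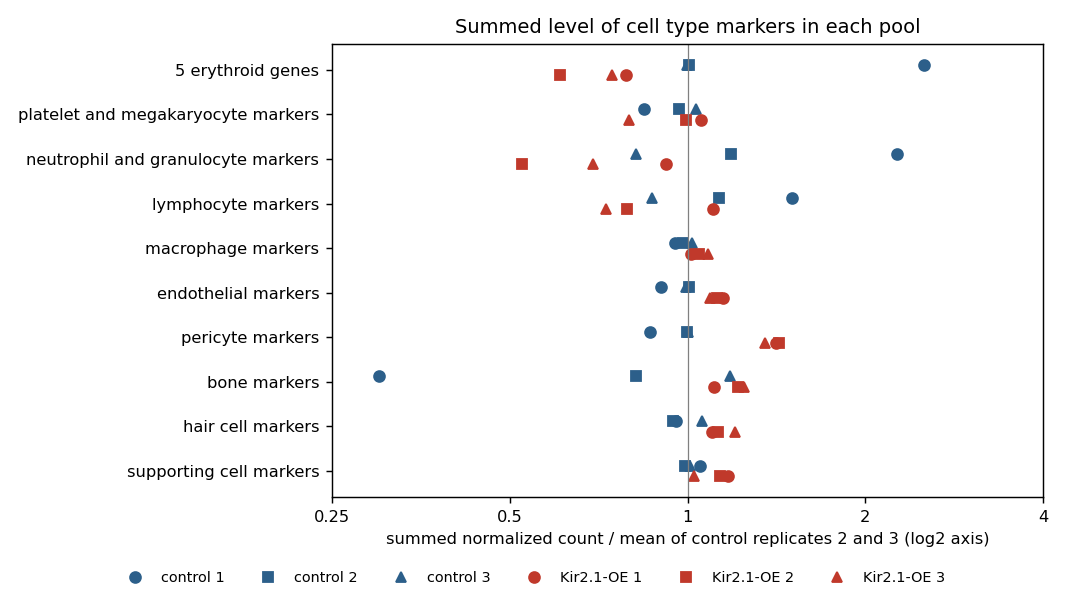
Summed normalized count of the 5 erythroid genes and of marker lists of other cell types in each pool, divided by the mean of control replicates 2 and 3 (horizontal log2 axis), with color for the group and symbols for the replicate. Control replicate 1 lies at 2.51 for the erythroid genes and 2.27 for neutrophil markers, and at 0.3 for bone markers.

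Outside the lists, the genes whose log2 normalized counts followed the mean of the 5 genes most closely over the 6 pools were Cbln1 (r = 0.9930), Zswim3, 5430405H02Rik, Naa40, Gzf1, Cfap206, Slc30a7, Mettl25, Trpa1 and Vegfb (r = 0.9770), out of 13641 genes that averaged 50 normalized counts or more. This is a description over 6 points, in which control replicate 1 dominates. Most of the 10 varied much less than the erythroid genes: Slc30a7, a zinc transporter, ran only from 2096.5 to 2471.1 normalized counts. Trpa1, a cation channel gene, varied more widely, with 48.2, 24.0 and 37.0 normalized counts in Kir2.1-OE and 163.5, 58.2 and 48.9 in controls.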

How the data were processed

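Poly(A) RNA of 6 pools of cochlear sensory epithelium, 3 per genotype, was sequenced by the authors as read pairs and processed with the nf-core RNA pipeline at its standard parameters, with mapping to mm10 and gene counts from Salmon. The estimated counts per gene symbol that the authors deposited were the output of Salmon, neither scaled for depth nor divided by length, and 6.95% of them were not whole; tool versions, annotation and strand setting are not given in the sources used here. Samples were grouped by the genotype in the labels. The header inside the file of control replicate 1 carries the number 4; the number of the labels was used.

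Estimated counts were rounded, scaled by TMM, filtered with filterByExpr and tested over all genes with the quasi-likelihood test of edgeR 4.0.16 (R 4.3.3), with p-values adjusted after Benjamini and Hochberg. A call needed both an adjusted p under 0.05 and more than a 1.5-fold change. Pools of a group differed by more than sampling noise. The steps were tested on simulated data. Length and GC content of the longest GENCODE vM21 transcript entered as loess offsets (span 0.4) for 15187 genes.

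The alternatives were DESeq2 1.42.0 size factors, library size, upper quartile, no filter, a minimum of 10 counts, a replicate block, the offsets with and without the block, each library left out, DESeq2's Wald test, limma-voom (limma 3.58.1), unrounded counts, no fold threshold, glmTreat against a log2 fold change of 0.6, the alpha globin pair summed, and library sizes without the 5 genes. The genes named were the set itself, Kcnj2, the 2 most abundant and up to 4 called genes of each erythroid list, the 2 most abundant of each other list, and the 10 most correlated genes. Members and lists were chosen with earlier results of these data known. Some genes of the lists are counted but not reported here by name. Columns of the authors' own comparisons were not used.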

Additional observations from a re-analysis of the deposited data

How the results depend on the processing

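The count of erythroid genes called lower was 2 over all pools. It was 0 with length and GC offsets, with glmTreat against a log2 fold change of 0.6, and with the offsets without control replicate 1 (added after seeing the data), and 1 with limma-voom and with the replicate block plus offsets. Leaving out each library in turn gave 0 (without control replicate 1) to 3. The median log2 fold change of -0.92 was -0.25 with the offsets without control replicate 1. The summed count ratio of 0.474 ranged from 0.405 to 0.712 over libraries left out, the highest value without control replicate 1. No gene of the 5 was called higher in any setting.

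Single genes that changed sign were Hba-a2 (0.21 with the offsets without control replicate 1) and Slc4a1 (-1.01 to 0.04 over libraries left out). With the offsets, with the block plus offsets and with the offsets without control replicate 1, Alad stood at 0.20, 0.19 and 0.19, Hmox2 at 0.18, 0.17 and 0.14, Add1 at -0.19, -0.19 and -0.19, and Ldb1 at -0.03, -0.03 and -0.04. Add1 was -0.07 with upper quartile scaling and ran from -0.03 to 0.05 over libraries left out. Steap3 was 0.00 without a filter and with a minimum of 10 counts, 0.01 with the block and with limma-voom, and ran from -0.11 to 0.14 over libraries left out. The cause was not tested. Of the alternatives for 28 single genes, 522 left direction and call as they were, 51 lost and 18 gained the call, and 23 turned the direction.

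Deviations from the group means gave no sign that equal replicate numbers paired the samples, with correlations of -0.106, -0.232 and -0.213. With 3 pools per group these values cannot settle whether pools were paired. With the replicate block, 3 of the 5 genes were called lower, Hba-a2 among them (log2 fold change -0.73, edgeR, adjusted p = 0.0297). The share of all genes called lower with the block was not counted.

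The controls were littermates, but which pools shared a litter is not given in the sources used here. Having 3 pools per group limits every test. Epb42 and Rhd rest on fewer than 60 normalized counts in each pool, and Gata1 and Hba-x were too rare to test.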
